A study of Mus musculus with 6 samples.

Results

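Pyruvate dehydrogenase kinases and phosphatases set the activity of the pyruvate dehydrogenase complex, and 7 genes of this system, Pdk1, Pdk2, Pdk3, Pdk4, Pdp1, Pdp2 and Pdpr, were followed here by symbol in a table of 49315 mouse genes. All 7 were found once in the table by their Ensembl identifiers, and all 7 had enough counts to be tested. The complex turns pyruvate into acetyl-CoA inside mitochondria, and so joins glycolysis to the tricarboxylic acid cycle. Kinases of the Pdk family phosphorylate its E1 alpha subunit and switch the complex off, while the phosphatases Pdp1 and Pdp2 remove the phosphate and switch it on again. In the heart, which takes most of its energy from fatty acids, this switch is known as a point where glucose oxidation is held back in favour of fat.

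Bulk RNA sequencing was done on total heart RNA of C57BL/6 mice, 3 conditional knock-in hearts with the Txnip C247S mutant and 3 wild-type hearts with Txnip WT. Txnip is an alpha-arrestin that restrains glucose uptake and binds thioredoxin through a cysteine, which C247S replaces by serine. The labels give MerCreMer, a tamoxifen-inducible Cre recombinase, and 4-hydroxytamoxifen for the hearts of both genotypes. They do not give the promoter of the recombinase, the age or sex of the mice, or whether the wild-type mice carried the recombinase.

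Library totals lay between 14146048 and 15620476 counts, and 12777 genes were tested. Txnip had 438, 391 and 429 CPM in knock-in hearts, against 724, 791 and 741 CPM in wild-type hearts (CPM are counts scaled to a common library size with TMM factors). Txnip was thus lower in the knock-in, with a log2 difference of −0.84 ± 0.09 (SE) and no overlap (edgeR's quasi-likelihood test, Benjamini-Hochberg adjusted p = 0.00379). All 9 cardiomyocyte markers were measured, with a summed level of 74975 to 77166 CPM in knock-in hearts and 70917 to 74572 CPM in wild-type hearts. Knock-in replicate 2 and wild-type replicate 3 stood apart from the other hearts of their genotype. The counts of pairs of hearts that included either of them differed by a chi-square per degree of freedom of 14.01 to 25.1. The pairs without them, knock-in replicates 1 and 3 and wild-type replicates 1 and 2, differed by 7.0 and 6.70. Results are also given without these 2 hearts, a choice that was not planned and was made after the values were seen.

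RefSeq promoter windows on GRCm38.p6, of 250 bases before and 50 bases after a transcript start, were at hand for 6 of the 7 genes, in 8 windows. Pdp1 had none. The E-box CACGTG, the core letters bound by MondoA, ChREBP and other basic helix-loop-helix factors, is shown because Txnip is a well known target of MondoA and ChREBP. Its letters were found in 1 window each of Pdk2, Pdp2 and Pdpr. They were found in 7.15% of all 32851 windows. All 3 lie before the RefSeq start, which is not the same base as the gene starts from GENCODE given further on. The stretches follow 5′ to 3′ on the strand of the gene, with the matching letters in capitals.
Pdk2 (chr11:95041480-95041509, minus strand): ctcgaggagagcCACGTGtcgaagcgcaag
Pdp2 (chr8:104591241-104591270, plus strand): ggggaagagcccCACGTGacgacctactgg
Pdpr (chr8:111094561-111094590, plus strand): cccaaacaagcgCACGTGcgggccggtccg

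The upstream stretch of Pdk4 is shown because Pdk4 had the widest difference between genotypes among the 7 genes. No letters are in capitals because none of the motifs searched occurred in it.
Pdk4 (chr6:5496310-5496428, minus strand): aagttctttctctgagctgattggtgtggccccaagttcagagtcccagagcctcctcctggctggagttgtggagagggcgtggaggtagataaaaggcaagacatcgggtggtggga

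Besides CACGTG, which reads the same on both strands, 4 motifs were searched on both strands of the 8 windows. These were the PPAR direct repeat, the ERR element TCAAGGTCA, whose end has letters in common with the PPAR repeat, the FOXO element GTAAACA and the palindromic glucocorticoid receptor element. None of them was found in the 8 windows. They were found in 0.0396%, 0.423%, 3.65% and 0.475% of all windows, in that order. Matches are a description of letters, and a window without one says only that the letters are not in it.

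Per length, Pdk2 was the most abundant kinase in every heart, while the order of Pdk4 and Pdk1 depended on the gene length used. Pdk2, the widely expressed kinase, had 131, 130.2 and 126 RPKM in knock-in hearts, against 120.4, 131 and 115 RPKM in wild-type hearts (RPKM are CPM per kilobase of merged exons). Pdk4, the kinase known for its induction by fasting and fatty acids, averaged 38.5 ± 9.53 RPKM in knock-in hearts and 25.3 ± 11.3 RPKM in wild-type hearts (SD, n = 3 each). Pdk1, known as a hypoxia-induced kinase, averaged 19.4 ± 2.26 RPKM in knock-in hearts and 17.9 ± 2.28 RPKM in wild-type hearts. Pdk3 was the scarcest, at 1.01 ± 0.280 RPKM in knock-in hearts and 0.681 ± 0.0986 RPKM in wild-type hearts, from 21 to 46 reads per heart.

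The phosphatase genes lay between Pdk1 and Pdk3. Pdp1, the calcium-stimulated catalytic subunit, averaged 7.39 ± 2.26 RPKM in knock-in hearts and 6.93 ± 0.890 RPKM in wild-type hearts. Pdp2, the catalytic subunit that calcium does not stimulate, averaged 5.93 ± 2.03 RPKM in knock-in hearts and 6.73 ± 0.724 RPKM in wild-type hearts. Pdpr, the regulatory subunit known to lower the sensitivity of Pdp1 to magnesium, averaged 8.57 ± 6.28 RPKM in knock-in hearts and 7.91 ± 3.33 RPKM in wild-type hearts. The ranges of these 3 genes overlapped, so their order was not resolved. The ranges of Pdk4 and Pdk1 also overlapped over hearts, although by merged exons Pdk4 was the higher of the pair within each heart (ratio 1.10 to 2.46). By the longest transcript Pdk4 was below Pdk1 in 3 hearts, knock-in replicate 2 and wild-type replicates 1 and 2.

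Pdk2 supplied 68.7 ± 3.13% of the summed kinase RPKM in knock-in hearts and 73.8 ± 6.68% in wild-type hearts (SD, n = 3 each). Pdk4 supplied 22.0%, 15.3% and 23.7% in knock-in hearts, against 11.2%, 12% and 22.0% in wild-type hearts, and the groups overlapped through wild-type replicate 3. Pdk1 supplied 10.4 ± 1.59% in knock-in hearts and 10.8 ± 0.775% in wild-type hearts. The share of Pdp1 in the catalytic phosphatases was 55.6 ± 3.08% in knock-in hearts and 50.7 ± 2.45% in wild-type hearts. By heart it was 53.6%, 54.0% and 59.1% in the knock-in, against 48.3%, 53.2% and 50.5% in the wild-type, narrowly without overlap. The shares were not tested. With the longest transcript as the length, Pdk4 supplied 15.4% of the kinases in knock-in hearts and 11.2% in wild-type hearts, and Pdk1 supplied 11.6% in knock-in hearts and 11.9% in wild-type hearts.

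The 4 kinases together had 192, 180.5 and 191 RPKM in knock-in hearts, against 154, 169.8 and 174 RPKM in wild-type hearts, without overlap. No single kinase had groups that did not overlap, a state that 16.1% of tested genes were in. The summed cardiomyocyte markers did not overlap either. The catalytic phosphatases together had 9.67, 17.9 and 12.3 RPKM in knock-in hearts, against 12.3, 13.4 and 15.3 RPKM in wild-type hearts. The ratio of kinases to catalytic phosphatases was 19.9, 10.1 and 15.5 in knock-in hearts, against 12.5, 12.7 and 11.4 in wild-type hearts. The lowest and the highest ratio were both found in knock-in hearts, so the groups overlapped. These sums were made over chosen genes and were not tested.

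**Figure D1:**
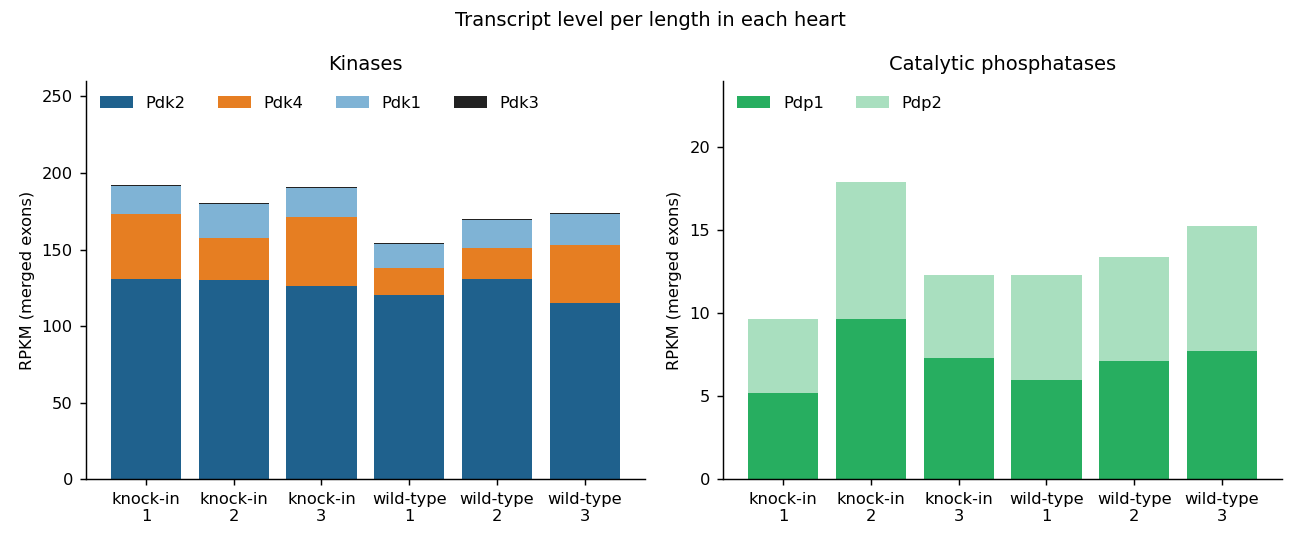
Stacked RPKM (CPM per kilobase of merged exons) of the 4 kinases on the left and the 2 catalytic phosphatases on the right, 1 bar per heart with the knock-in hearts first. Pdk2 makes up most of each kinase bar, and the Pdk4 segment is small in wild-type replicates 1 and 2 and larger in the other 4 hearts.

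Across all 6 hearts, none of the 7 genes passed the test of knock-in over wild-type at an adjusted p under 0.05. Of all tested genes 0.297% were called, 0.11% as higher and 0.188% as lower, so a count of 0 in 7 lies near the background. At an unadjusted p under 0.05 there were also 0 of the 7, against 9.97% of all tested genes. DESeq2 and limma-voom called 0 of the 7 as well, against 1.17% and 0.141% of the genes they tested. No gene of the 7 had groups that did not overlap, a state that 16.1% of tested genes were in. Of the 7 log2 fold changes 6 were positive and 1 was negative, with a median of 0.12, against −0.01 over all tested genes. In bulk heart RNA, fewer cells of a type and less RNA per cell cannot be told apart.

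Pdk4 (ENSMUSG00000019577, chromosome 6, 5483351 to 5496309) had 149, 96.8 and 159 CPM in knock-in hearts, against 60.8, 71.5 and 134 CPM in wild-type hearts. Wild-type replicate 3 lay among the knock-in values, above knock-in replicate 2. The log2 fold change was 0.60 ± 0.34 (SE), with a 95% interval of −0.21 to 1.42 and an adjusted p of 0.643. On the linear scale the interval runs from 0.863-fold to 2.68-fold, so a change of more than 2-fold in knock-in hearts is inside it. Permuting the genotypes over the hearts gave an exact two-sided p of 0.2, where the smallest possible is 0.1.

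Pdk4 also varied widely among hearts of one genotype. Its coefficient of variation was 24.8% in knock-in hearts and 44.6% in wild-type hearts. That of Pdk3, at far fewer reads, was 27.7% in knock-in hearts and 14.5% in wild-type hearts, and that of Pdk2 was 2.06% in knock-in hearts and 6.69% in wild-type hearts. Its biological coefficient of variation in the fit, 28.7%, was at or above that of 97.2% of tested genes.

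Pdk2 (ENSMUSG00000038967, chromosome 11, 95026258 to 95041354) was the steadiest of the 7 genes. It had 415, 412 and 399 CPM in knock-in hearts, against 381, 414 and 363 CPM in wild-type hearts. The log2 fold change was 0.08 ± 0.09 (SE; adjusted p = 0.845), with a 95% interval of −0.12 to 0.28. A difference beyond 1.21-fold up or 0.922-fold down lies outside that interval.

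Pdk1 (ENSMUSG00000006494, chromosome 2, 71873224 to 71903858) had 139, 171 and 143 CPM in knock-in hearts, against 122, 138 and 158 CPM in wild-type hearts. The log2 fold change was 0.12 ± 0.12, with a 95% interval of −0.15 to 0.39. Pdk3 (ENSMUSG00000035232, chromosome X, 93764607 to 93832201), a kinase better known from brain and testis, had 2.86, 1.78 and 3.14 CPM in knock-in hearts, against 1.91, 1.87 and 1.45 CPM in wild-type hearts. Its log2 fold change was 0.57 ± 0.28 (adjusted p = 0.558), the smallest p of the 7 genes, and knock-in replicate 2 lay within the wild-type range.

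**Figure D2:**
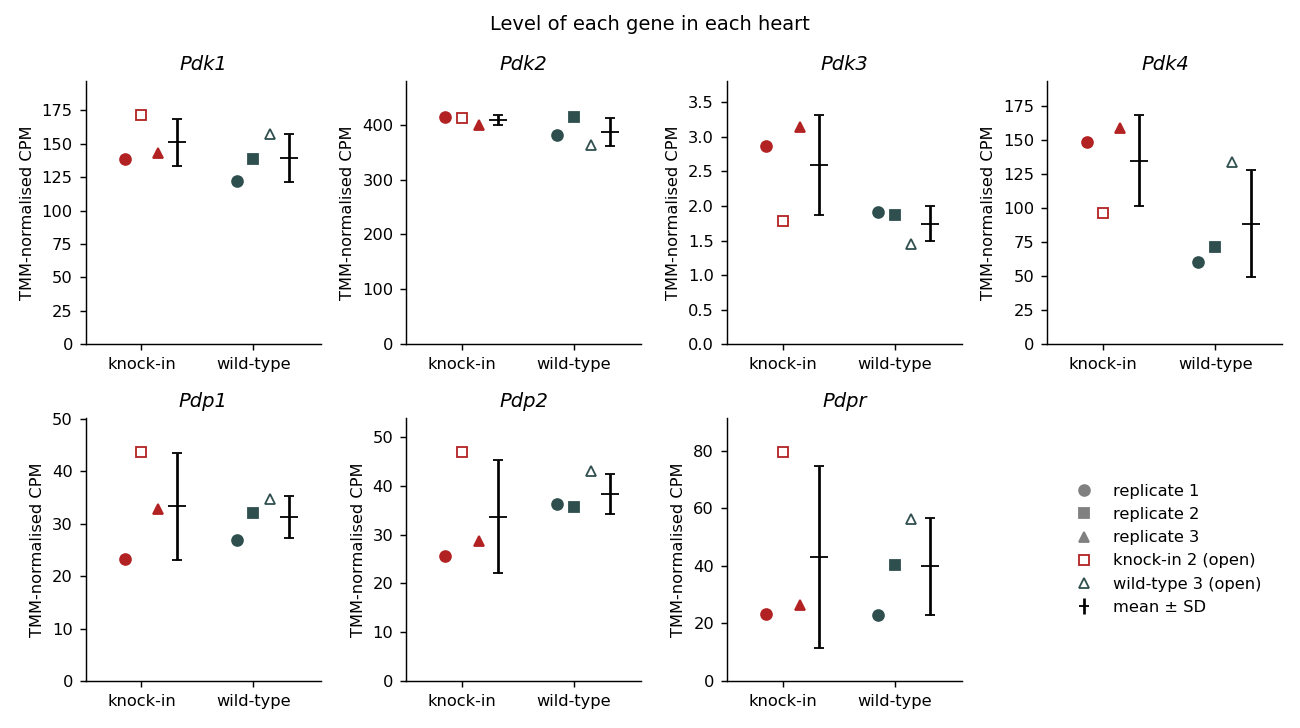
TMM-normalised CPM of each gene in each heart, with knock-in hearts left of wild-type hearts, 1 symbol per replicate, and the mean ± SD (n = 3) in black. Every axis starts at 0, and the open symbols are knock-in replicate 2 and wild-type replicate 3, which hold the highest 2 values of Pdk1, Pdp1, Pdp2 and Pdpr.

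All 3 phosphatase genes overlapped between the genotypes. Pdp1 (ENSMUSG00000049225, chromosome 4, 11958184 to 11966452) had 23.4, 43.7 and 32.9 CPM in knock-in hearts, against 26.9, 32.1 and 34.7 CPM in wild-type hearts. Pdp2 (ENSMUSG00000048371, chromosome 8, 104591451 to 104599026) had 25.6, 47.0 and 28.7 CPM in knock-in hearts, against 36.3, 35.6 and 43.0 CPM in wild-type hearts. The log2 fold changes were 0.09 ± 0.20 for Pdp1 and −0.18 ± 0.21 for Pdp2 (SE), with 95% intervals of −0.36 to 0.55 and −0.65 to 0.28.

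Pdpr (ENSMUSG00000033624, chromosome 8, 111094630 to 111137074) spread over a 3.48-fold range. It had 23.4, 79.5 and 26.4 CPM in knock-in hearts, against 22.8, 40.2 and 56.3 CPM in wild-type hearts. Its log2 fold change was 0.12 ± 0.60 (adjusted p = 0.981), and its biological coefficient of variation, 49.6%, was at or above that of 99.7% of tested genes. An antisense gene, 9430091E24Rik, covers 3.36% of the exon bases of Pdpr, and without a stated strand setting reads from this stretch cannot be told apart by gene.

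The spread had a common form in 4 of the 7 genes. Pdk1, Pdp1, Pdp2 and Pdpr each had their highest 2 values in knock-in replicate 2 and wild-type replicate 3, as did 15.7% of all tested genes. Pdk3 had the opposite form, with its lowest 2 values in these 2 hearts, as did 13.8% of all tested genes. These counts were made after the values were seen and were not tested. Knock-in replicate 2 was 1.21 times the mean of the other knock-in hearts for Pdk1, 1.55 times for Pdp1, 1.73 times for Pdp2 and 3.19 times for Pdpr. Wild-type replicate 3 was 1.21 times the mean of the other wild-type hearts for Pdk1, 1.18 times for Pdp1, 1.2 times for Pdp2 and 1.79 times for Pdpr.

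Pdk4 had neither form. In Pdk4, knock-in replicate 2 was 0.628 times the mean of the other knock-in hearts, whereas wild-type replicate 3 was 2.03 times the mean of the other wild-type hearts. Each of these 2 hearts thus lay toward the values of the other genotype. Genes of the mitochondrial chromosome took 28.0% of counts in wild-type replicate 3, and between 22.9% and 24.3% in each of the other 5 hearts. Its part in these results was not tested.

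Without knock-in replicate 2 and wild-type replicate 3, Pdk4 passed the test. The 4 remaining hearts had 149 and 159 CPM in the knock-in and 60.8 and 71.5 CPM in the wild-type, which edgeR fitted as a log2 difference of 1.23 ± 0.10 (SE), with an adjusted p of 1.02e-06. In that fit 3.04% of all tested genes were called, 1.33% as higher, and 47.5% had groups that did not overlap. The choice of hearts was made after the values were seen, and leaving out the heart farthest from its group narrows the spread on which the p rests. Leaving out wild-type replicate 3 alone gave Pdk4 a log2 fold change of 1.03 (adjusted p = 0.159), and leaving out knock-in replicate 2 alone gave 0.80 (adjusted p = 0.433). The 6 other genes were not called in the 4 hearts, with Pdp2 at −0.40 ± 0.11 (adjusted p = 0.0648) and Pdk3 at 0.67 ± 0.29 (adjusted p = 0.242).

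**Figure D3:**
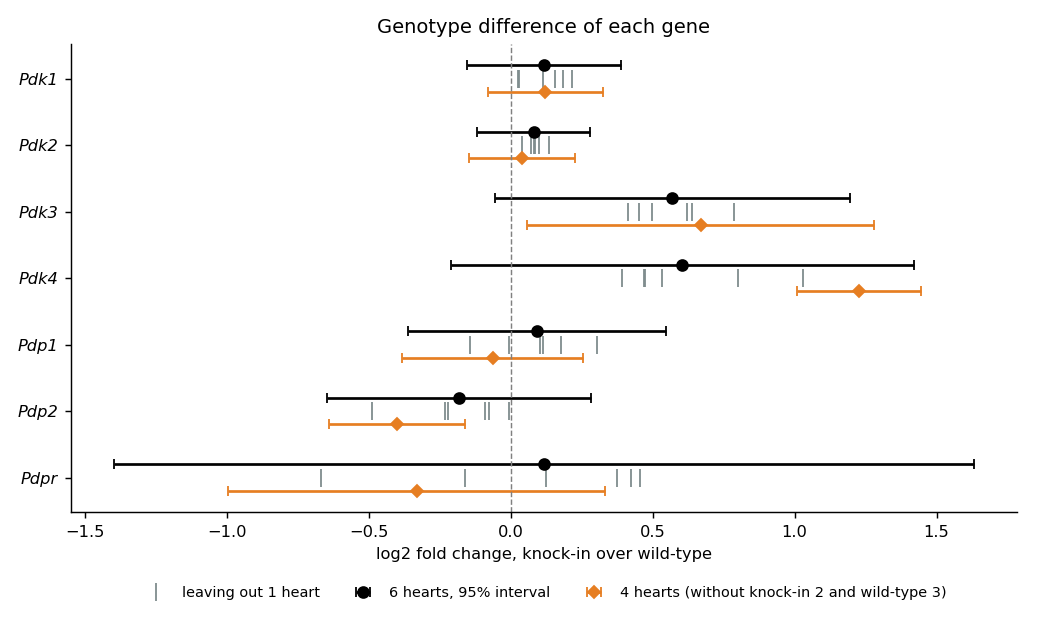
Log2 fold change of each gene, knock-in over wild-type, with the 95% interval from all 6 hearts in black, the values on leaving out 1 heart as grey ticks, and the fit to 4 hearts in orange. All 7 intervals from 6 hearts include 0. In 4 hearts, chosen after the values were seen, the interval of Pdk4 runs from 1.01 to 1.44 and rests on a narrowed spread.

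The complex is the target of these enzymes. Among its 5 tested subunits 0 were called, against 0.297% of all tested genes. Their log2 fold changes ran from −0.18 to 0.04, with a median of −0.03. Dlat, the E2 acetyltransferase that also anchors the kinases, had the smallest p, with 365, 370 and 348 CPM in knock-in hearts, against 409, 403 and 416 CPM in wild-type hearts (log2 fold change −0.18 ± 0.09 SE, adjusted p = 0.516). Pdha1, the E1 alpha subunit that is phosphorylated, averaged 286 ± 46.0 RPKM in knock-in hearts and 283 ± 37.4 RPKM in wild-type hearts (SD, n = 3 each), above Pdk2 per length in every heart. Pdha2, its testis counterpart, had 0 counts in all 6 hearts. Pdha1 and Dld, the E3 subunit, also had their highest 2 values in knock-in replicate 2 and wild-type replicate 3. Pdhb had its lowest 2 values in these hearts, at 714 and 698 CPM. The groups of Dlat and of Pdhx did not overlap, a state that 16.1% of tested genes were in.

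The branched-chain ketoacid dehydrogenase has a kinase and a phosphatase of its own, which are relatives of the genes above. Bckdk, the kinase, had a log2 fold change of 0.09 ± 0.10 (SE), and Ppm1k, the phosphatase, one of −0.12 ± 0.24. Of the 5 genes in this list 0 were called, with 2 lower at an unadjusted p under 0.05, against 5.23% of all tested genes. Bckdhb, the E1 beta subunit, had the smallest p, with 55.5, 64.2 and 54.3 CPM in knock-in hearts, against 71.9, 77.4 and 76.8 CPM in wild-type hearts (log2 fold change −0.38 ± 0.10, adjusted p = 0.224).

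Among 9 genes that supply pyruvate or use it, 0 were called, 7 had positive and 2 negative log2 fold changes, and the median was 0.09. At an unadjusted p under 0.05, 2 were higher and 2 lower, against 4.74% and 5.23% of all tested genes. Pcx, which carboxylates pyruvate to oxaloacetate, had the smallest p, at 33.6 ± 4.24 CPM in knock-in hearts and 51.4 ± 4.64 CPM in wild-type hearts (SD, n = 3). The groups did not overlap, and the log2 difference was −0.61 ± 0.12 (SE), with an adjusted p of 0.0883.

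Transcription regulators known to act on Pdk genes were followed for their own levels. Of the 12, 0 were called, against 0.297% of all tested genes. At an unadjusted p under 0.05, 1 was higher and 1 lower, against 4.74% and 5.23% of all tested genes. Log2 fold changes were positive in 3 and negative in 9 (median −0.12, range −0.29 to 0.28). Over all tested genes 6177 of 12777 were positive. Foxo3, a forkhead factor restrained by insulin, had the smallest p, with 0.26 ± 0.10 (SE; adjusted p = 0.382). Ppara, the fatty acid receptor that activates Pdk4, had 13.1, 42.7 and 11.8 CPM in knock-in hearts, against 13.9, 22.4 and 34.6 CPM in wild-type hearts. Its highest 2 values were in knock-in replicate 2 and wild-type replicate 3, as were those of Ppargc1a, Ppargc1b, Esrrg, Nr3c1 and Hif1a.

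Genes that respond to PPAR factors, as Pdk4 does, had positive log2 fold changes in 14 of 17 tested members (median 0.21), with 0 called and 4 higher at an unadjusted p under 0.05. Over all genes 6177 of 12777 were positive, and 4.74% were higher and 5.23% lower at that p. Fabp3, the heart fatty acid binding protein, had the smallest p, at 4077 ± 564 CPM in knock-in hearts and 2792 ± 68.6 CPM in wild-type hearts (SD, n = 3). The log2 difference was 0.55 ± 0.11 (SE), with an adjusted p of 0.0847. Plin2, a lipid droplet protein, had 55.0, 63.5 and 58.3 CPM in knock-in hearts, against 43.6, 45.4 and 41.4 CPM in wild-type hearts, without overlap (adjusted p = 0.146). It was named after its values were seen.

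Glucocorticoids are a further known inducer of Pdk4. All 11 members of the glucocorticoid-responsive list had positive log2 fold changes (median 0.44), with 0 called and 2 higher at an unadjusted p under 0.05. Over all tested genes 6177 of 12777 were positive, and 4.74% were higher at that p. Errfi1, an inhibitor of ErbB receptors, had the smallest p, with 0.44 ± 0.13 (SE; adjusted p = 0.255). Tsc22d3, the glucocorticoid-induced leucine zipper, had 177, 135 and 190.0 CPM in knock-in hearts, against 107, 120 and 49.8 CPM in wild-type hearts. It was not called, with a log2 fold change of 0.86 ± 0.32 (SE; edgeR adjusted p = 0.444), and was named after its values were seen. Over the whole list the sums were 1057, 671 and 933 CPM in knock-in hearts, against 788, 692 and 411 CPM in wild-type hearts, and the groups overlapped. Knock-in replicate 2 and wild-type replicate 3 had the lowest sum of their genotype, and 5 of the 11 genes had their lowest 2 values in these hearts, as did 13.8% of all tested genes. Pdk4 was likewise lowest among knock-in hearts in replicate 2, but highest among wild-type hearts in replicate 3. The part of these 2 hearts in the values of the list was not tested.

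**Figure D4:**
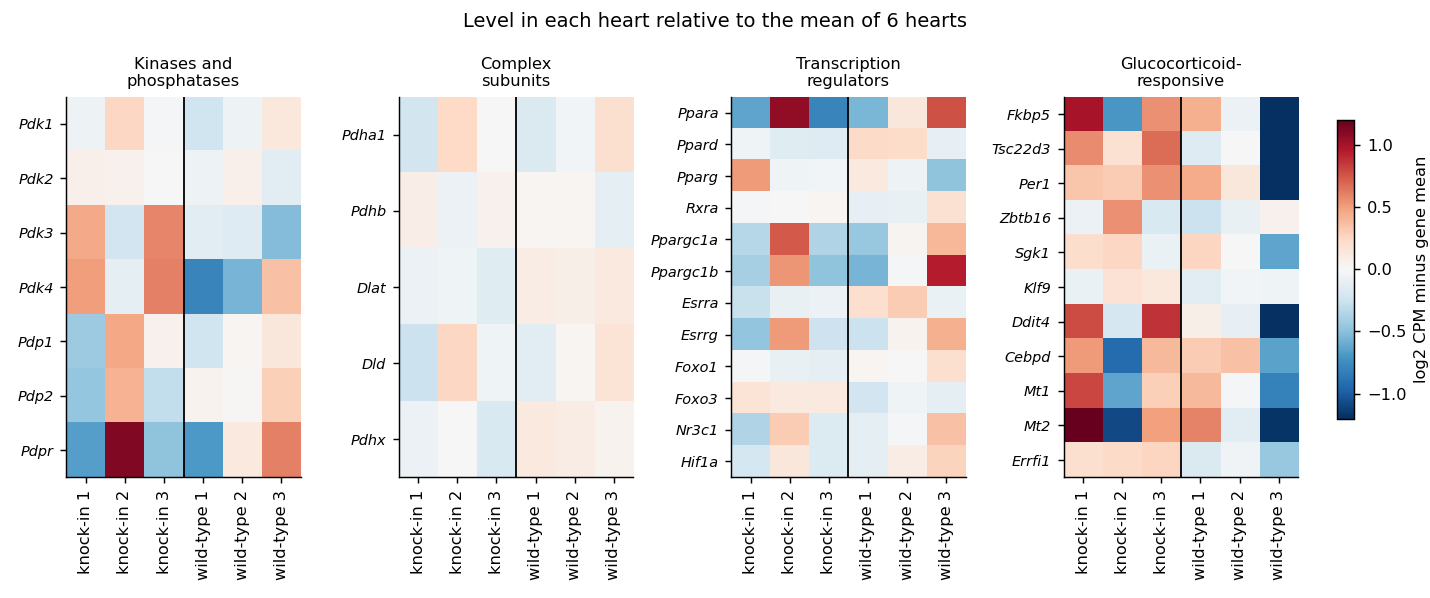
Log2 CPM of each tested gene in each heart minus its mean over the 6 hearts, with knock-in hearts left of the black line and colours capped at 1.2 in each direction. Pdpr, Ppara and Ppargc1a are red in knock-in replicate 2 and wild-type replicate 3, while Fkbp5, Tsc22d3 and Ddit4 are dark blue in wild-type replicate 3, where Pdk4 is pale red.

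The genes most like each variable member were found by the root mean square difference of mean-centred log2 CPM over the 6 hearts, among 9106 or 9107 named genes with at least 5 CPM on average. For Pdpr they were Hipk2 (0.099), Slc8a1 (0.12) and Ppara (0.15), against a root mean square deviation of 0.68 in the log2 values of Pdpr itself. For Pdp1 they were Srsf7 (0.042), Abhd18 (0.052) and Zfp97 (0.056), against a deviation of 0.28. For Pdp2 they were Kdm1b (0.063), Jmjd4 (0.065) and Cldn12 (0.069), against 0.30. For Pdk3 they were Itpripl1 (0.059), Fxyd6 (0.096) and Aqp1 (0.0998), against 0.37. For Pdk4 the nearest genes were Gja5 (0.23), Tgfb2 (0.26) and Trp53inp1 (0.27), against a deviation of 0.53.

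Markers of other cells were read beside these values. Of 8 adipocyte markers 6 were too low to be tested, and Plin1 and Lep had 0 counts in all hearts. The list summed to 60.6 to 76.0 CPM in knock-in hearts and 50.5 to 55.1 CPM in wild-type hearts, nearly all of it from Cidea and Lipe. Of 8 skeletal muscle markers 6 were too low to be tested, Myh2 had 0 counts in all hearts, and the list summed to 1.98 to 4.68 CPM in knock-in hearts and 1.94 to 2.52 CPM in wild-type hearts. Of 7 erythroid markers 5 were called, all higher, against 0.11% of all tested genes called higher and 0.188% called lower. The 7 erythroid markers summed to 1450 to 1920 CPM in knock-in hearts and 464 to 636 CPM in wild-type hearts. Of 10 macrophage markers 1, Lyz2, was called, as lower, and they summed to 262 to 284 CPM in knock-in hearts and 344 to 398 CPM in wild-type hearts. All 10 had negative log2 fold changes (median −0.47), and 6 were lower at an unadjusted p under 0.05. Over all tested genes 6600 of 12777 were negative, and 5.23% were lower at that p. The 7 endothelial and 7 fibroblast markers had 0 calls, with endothelial sums of 500 to 799 CPM in knock-in hearts and 537 to 776 CPM in wild-type hearts, and fibroblast sums of 582 to 733 CPM in knock-in hearts and 638 to 665 CPM in wild-type hearts. The part of other cells in the values of the kinases and phosphatases was not tested.

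**Figure D5:**
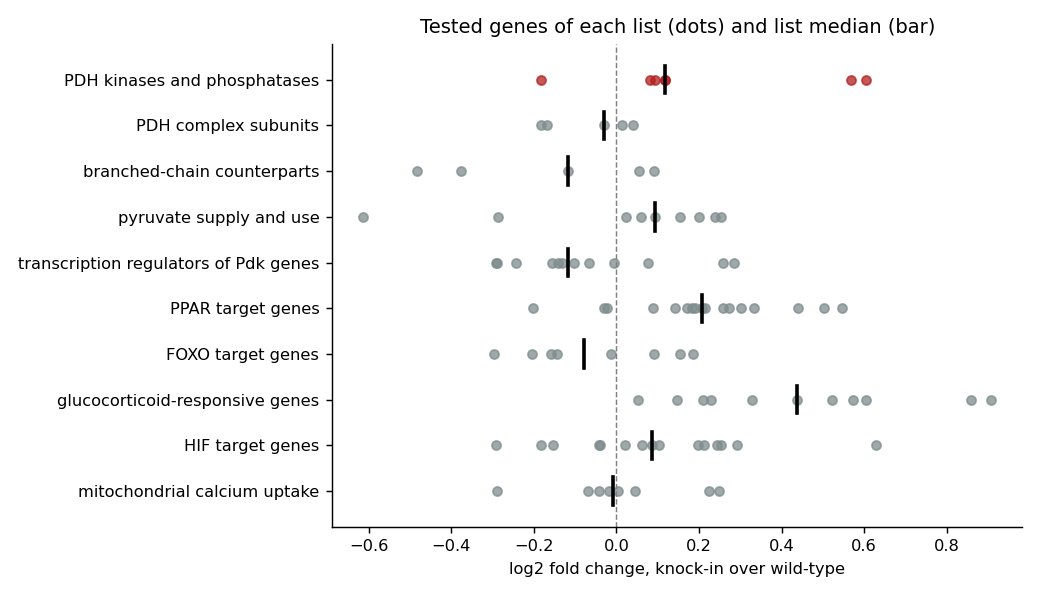
Log2 fold change of each tested gene (dots) and the median (black bar) in the kinase and phosphatase list and 9 related lists, knock-in over wild-type. The kinases and phosphatases have a median of 0.12 with Pdk3 and Pdk4 at the right. In these 10 lists 0 genes were called, against 0.297% of all tested genes.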

How the data were processed

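Whole-number read counts per Ensembl gene, 1 column per heart and not normalized, were deposited by the authors for the 6 hearts. STAR, featureCounts, Subread 1.5.2, DESeq2 and GRCm38.p6 are named in the submitters' processing notes without roles. Which annotation release the authors used, whether they counted by strand, and how multi-mapping reads were handled is not given in the sources used here. Columns were matched by sample descriptions. Replicate numbers follow accession order. The labels do not say that the hearts of a genotype came from separate litters or days. The p-values therefore weigh the genotype difference only against the spread between these samples.

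Names, positions and exon lengths came from GENCODE M21 on GRCm38, which held 49056 of 49315 identifiers. Testing used edgeR 4.0.16 in R 4.3.3, with low counts removed by filterByExpr, TMM scaling, a robust quasi-likelihood fit on genotype and Benjamini-Hochberg adjustment over 12777 genes. Called means an adjusted p under 0.05. The SE is the log2 fold change over the root of F, and 95% intervals use its degrees of freedom. RPKM divides CPM by merged exon length. At these depths 3 counts equal 0.195 to 0.208 CPM, and counting error alone is covered by that floor. At most 1.92% of the 31-base words of any of the 7 genes occurred in other genes.

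The 7 genes and the lists were chosen with earlier results of these data known. In each list other than those of cell markers, the text names up to 4 called genes or the 1 with the smallest p. Among cell markers it names only Lyz2, which was called, and Cidea, Lipe, Plin1, Lep and Myh2, for their levels. For members ranging over at least 0.5 in log2 CPM it also names the 3 genes nearest in pattern. Further genes are those it says were named after their values were seen. Bckdk, Ppm1k, Pdha1, Pdha2, Dld, Pdhx, Ppara and the other genes listed as highest or lowest in single hearts were named in the same way. Alternatives were other scalings and filters, DESeq2 1.42.0, limma-voom (limma 3.58.1), no robust estimation, removal of mitochondrial or the 20 most abundant genes, each heart left out, another gene length, and, chosen after seeing the data, 4 hearts.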

Additional observations from a re-analysis of the deposited data

How the results depend on the processing

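The count of called members was 0 in all 17 alternatives that kept at least 5 hearts and 1 (Pdk4) in the 4 hearts. The count of called genes was 38. It was 317 without a filter, 139 with DESeq2, 18 with limma-voom, 75 at an adjusted p under 0.1 and 392 in the 4 hearts, a choice made after seeing the data. It was 5 to 174 on leaving out 1 heart (174 when knock-in replicate 2 was left out, 6 for knock-in replicate 3, and 14, 5 and 13 for wild-type replicates 1, 2 and 3). The remaining settings, of scaling, filter, robust estimation and gene set, gave 36 to 40.

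Signs turned in Pdp1 and Pdpr. On leaving out 1 heart Pdp1 ran from −0.14 to 0.30 and Pdpr from −0.67 to 0.45 on the log2 scale. Pdpr was −0.022 with limma-voom. In the 4 hearts Pdp1 was −0.063 and Pdpr −0.33. The cause was not tested. The 5 other genes kept their sign in all 17 alternative fits, the 4 hearts included, but 1 heart moved their sizes: on leaving out 1 heart Pdk4 was 0.39 to 1.03, Pdk3 0.41 to 0.79, Pdk1 0.026 (without knock-in replicate 2) to 0.21 (without wild-type replicate 3), Pdk2 0.04 to 0.14, and Pdp2 −0.49 (without knock-in replicate 2, adjusted p = 0.101) to −0.0076 (without knock-in replicate 1). No paired analysis was possible because the replicate numbers follow accession order and the labels tie no knock-in heart to a wild-type heart. Depth limits Pdk3, with 21 to 46 reads per heart.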

Other observations

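In 3 further lists tied to these enzymes 0 genes were called, against 0.297% of all tested genes. Over all tested genes 6177 of 12777 log2 fold changes were positive. Of 15 tested HIF target genes, which share with Pdk1 a response to low oxygen, 10 had positive and 5 negative log2 fold changes (median 0.09). Ldha, which turns pyruvate into lactate, had the smallest p there, at 910.1 ± 35.3 CPM in knock-in hearts and 764 ± 61.8 CPM in wild-type hearts (SD, n = 3; edgeR adjusted p = 0.382). Of 8 FOXO target genes 3 had positive and 5 negative values (median −0.08), and Gadd45a, a stress response gene, had the smallest p (log2 fold change −0.20 ± 0.13 SE, adjusted p = 0.671). Of 8 genes of mitochondrial calcium uptake, the signal that stimulates Pdp1, 4 had positive and 4 negative values (median −0.01). Micu2, a gatekeeper of the uniporter, had the smallest p (adjusted p = 0.474). It had 95.3 ± 6.96 CPM in knock-in hearts and 80.1 ± 7.51 CPM in wild-type hearts. At an unadjusted p under 0.05, 2 HIF target genes, 0 FOXO target genes and 1 calcium uptake gene were higher. None of the 3 lists had a lower gene at that p. Over all tested genes 4.74% were higher and 5.23% lower at that p.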
